A study of Homo sapiens with 4 samples.

Results

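The fibroblast growth factor (FGF) genes described here are 10 genes taken by symbol from a table of 61806 genes. They are the receptors FGFR1, FGFR2, FGFR3 and FGFR4, the receptor-like gene FGFRL1, the ligands FGF1, FGF2, FGF5 and FGF18, and the carrier FGFBP1. Their RNA was measured in 4 libraries of human bone cancer cells cultured without attachment. JJ012 is a chondrosarcoma line and 143B is an osteosarcoma line, and each was sequenced once as an untreated control and once after melatonin at 1 mM for 72 h. Each tumour type is represented by 1 established line. With 1 library per group no spread between cultures could be estimated. No p-value is therefore given, and intervals cover counting error only.

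FGF ligands are secreted proteins that bind heparan sulfate and a receptor at the cell surface. FGFR1 to FGFR4 are receptor tyrosine kinases, which signal through the docking protein FRS2 to the RAS-MAPK and PI3K-AKT pathways. FGFRL1 resembles them outside the cell but lacks the kinase. In the skeleton, FGFR3 restrains the growth of cartilage, FGF18 acts on chondrocytes and osteoblasts, and FGF2 is a growth factor for mesenchymal cells. FGFBP1 releases FGF ligands from the matrix.

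The libraries held 15889564 to 19218343 counts, so 3 counts, the limit that a count of 0 allows, equal 0.156 to 0.189 CPM, counts scaled to the library total. FPKM, the level used below, is the CPM of a gene per kilobase of its exons. Of 9 chondrocyte markers, 2 reached 1 FPKM in each JJ012 library and 1 in each 143B library, and the defining markers ACAN and COL2A1 stayed at or below 0.11 FPKM in all 4. SOX9 lay between 6.16 and 15.48 FPKM in all 4, and COL11A1 was at 22.92 and 3.24 in JJ012 and at 0 in 143B. The summed level of the list was 39.7 FPKM in JJ012 control and 9.98 with melatonin, and 16.9 and 13.4 in 143B. Of 9 osteoblast markers, 4 reached 1 FPKM in JJ012 control, 2 in JJ012 melatonin and 3 in each 143B library. That list summed to 107.2 and 68.3 FPKM in JJ012 and to 8.70 and 8.72 in 143B. RUNX2 lay between 2.59 and 4.28 FPKM in all 4 libraries, and SPP1 was at 79.39 and 64.50 in JJ012 and at most 0.53 in 143B. COL1A1 was at 10.92 and 0.77 in JJ012 and COL1A2 at 12.48 and 0.14, against at most 0.49 in 143B. In the other direction, DLX5 was at 0 in JJ012 and at 1.73 and 3.64 in 143B. BGLAP was at 0.81 and 0.26 in JJ012 and at 1.44 and 1.21 in 143B. ALPL was at or below 0.36 in all 4, and SP7 and IBSP at or below 0.13. Markers of epithelial cells summed to 19.4 and 13.5 FPKM in JJ012 and to 46.9 and 32.4 in 143B, those of endothelial cells lay between 0.93 and 2.40, and those of leukocytes were at 10.4 and 3.83 in JJ012 and at or below 0.13 in 143B. Of the leukocyte sum in JJ012, CD3E alone made up 9.73 and 3.28 FPKM, while PTPRC was at or below 0.14 and CD14 at or below 0.53. The part of these differences in the results below was not tested.

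FGFR3 and FGFR4 were the receptors that rose with melatonin in 143B and were low in JJ012, while FGFRL1 and FGF5 were higher in JJ012, so the 250 bases before the start sites of these 4 genes are shown. The sequences are from RefSeq start sites on GRCh38.p14, and all 4 are on the plus strand. The FGFRL1 window lies inside the gene as deposited, which starts at 1009936. Its letters are therefore not those upstream of the gene as counted here. Windows were taken for 9 of the 10 genes, and FGFR1 was left out. Capitals mark the GC box, GGGCGG on either strand.
FGFR3 (chr4:1793043-1793292): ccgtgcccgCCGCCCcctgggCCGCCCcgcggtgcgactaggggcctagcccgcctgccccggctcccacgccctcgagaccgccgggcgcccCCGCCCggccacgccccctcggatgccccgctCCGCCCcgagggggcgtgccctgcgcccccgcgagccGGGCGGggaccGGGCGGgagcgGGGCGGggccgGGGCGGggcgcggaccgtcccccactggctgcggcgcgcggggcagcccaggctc
FGFR4 (chr5:177086665-177086914): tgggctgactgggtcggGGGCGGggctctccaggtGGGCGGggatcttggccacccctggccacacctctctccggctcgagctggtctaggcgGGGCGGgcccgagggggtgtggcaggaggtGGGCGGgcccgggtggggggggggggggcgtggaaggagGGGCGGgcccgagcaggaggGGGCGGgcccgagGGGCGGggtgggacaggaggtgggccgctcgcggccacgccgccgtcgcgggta
FGFRL1 (chr4:1012214-1012463): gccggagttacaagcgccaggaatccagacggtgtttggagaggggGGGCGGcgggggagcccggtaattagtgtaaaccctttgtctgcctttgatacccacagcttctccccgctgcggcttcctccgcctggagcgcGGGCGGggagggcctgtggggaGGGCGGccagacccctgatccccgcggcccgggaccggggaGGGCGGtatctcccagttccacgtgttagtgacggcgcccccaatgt
FGF5 (chr4:80266338-80266587): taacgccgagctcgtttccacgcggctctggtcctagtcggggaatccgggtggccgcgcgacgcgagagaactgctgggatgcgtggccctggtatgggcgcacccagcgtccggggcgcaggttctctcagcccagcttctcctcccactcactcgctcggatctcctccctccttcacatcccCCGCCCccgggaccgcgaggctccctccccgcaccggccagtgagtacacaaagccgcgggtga
The FGFR3 window held 8 GC boxes and the FGFR4 window 7, against 4 for FGFRL1 and 1 for FGF5. FGFR2, also higher in 143B than in JJ012, had 3, fewer than FGFRL1. Of the other windows taken, those of FGF2 and FGF18 held 3 each and those of FGF1 and FGFBP1 held 0. Among 27305 windows of this length 42.2% held a GC box and 13.9% held 3 or more. Guanine and cytosine made up 86.8% of the FGFR3 window and 79.6% of the FGFR4 window, more than in 99.8% and 96.4% of the windows. The shares were 67.6% for FGFRL1 and 68.8% for FGF5. The E box CACGTG, which does not overlap the GC box and was found in 6.46% of windows, was present once for FGFRL1 and not for the other 3. These matches describe the letters of the windows only.

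FGFR1 was the main kinase receptor of JJ012 and was also abundant in 143B. It had 11.91 FPKM in JJ012 control, 9.83 in JJ012 melatonin, 15.82 in 143B control and 11.88 in 143B melatonin. In both lines the melatonin library was the lower. FGFR1 lies at 38400215 to 38468834 of chromosome 8 (hg38, minus strand). LETM2 overlaps it on the other strand, with 17 to 130 counts against at least 2729 for FGFR1.

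FGFR3, on chromosome 4 (1793293 to 1808872), had 0.91 FPKM in JJ012 control, 0.28 in JJ012 melatonin, 11.72 in 143B control and 18.29 in 143B melatonin. The 143B libraries were the high ones, and melatonin went with the lower value in JJ012 and the higher value in 143B. The counts behind these levels were 85, 22, 903 and 1522. Of 3 FGFR3 pseudogenes only FGFR3P5 had counts, 13 in JJ012 melatonin, beside 22 for FGFR3 in that library. Reads shared between near-identical copies were not examined, so their number is not known.

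FGFR4, on chromosome 5 (177086905 to 177098144), was nearly confined to 143B in these libraries. It had 2 counts in JJ012 control, 1 in JJ012 melatonin, 229 in 143B control and 429 in 143B melatonin, which are 0.02, 0.01, 3.00 and 5.20 FPKM. FGFR2, on chromosome 10 (121478332 to 121598458), had 0 counts in both JJ012 libraries, 140 in 143B control and 160 in 143B melatonin, and reached at most 0.50 FPKM. A count of 0 allows up to 0.156 CPM in JJ012 control and 0.186 in JJ012 melatonin.

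FGFRL1, also on chromosome 4 (1009936 to 1026898), went the other way between the lines. It had 28.14 FPKM in JJ012 control, 23.87 in JJ012 melatonin, 7.60 in 143B control and 11.00 in 143B melatonin. By the deposited length it had the highest FPKM of the 10 genes in both JJ012 libraries and the third in both 143B libraries.

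**Figure D1:**
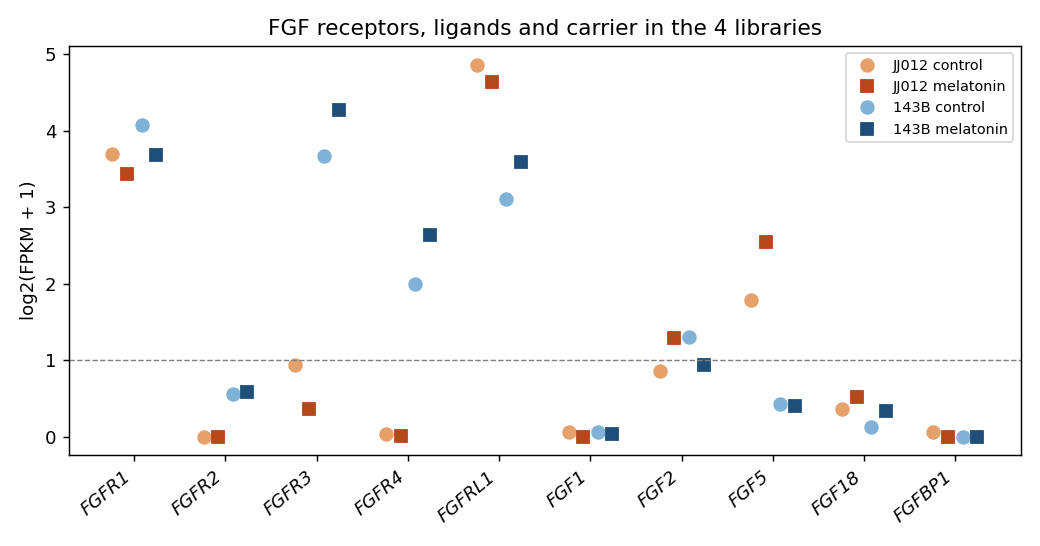
Level of each of the 10 genes in the 4 libraries, as log2(FPKM + 1), with 1 point per library and the dashed line at 1 FPKM. FGFR3 and FGFR4 stand high only in the 143B libraries, FGFRL1 and FGF5 are higher in JJ012 than in 143B, and FGF1 and FGFBP1 lie near 0 in all 4.

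The make-up of the kinase receptors differed between the lines. The summed level of FGFR1 to FGFR4 was 12.84 FPKM in JJ012 control, 10.12 in JJ012 melatonin, 31.01 in 143B control and 35.87 in 143B melatonin. FGFR1 made up 92.8% and 97.1% of it in JJ012, 51.0% in 143B control and 33.1% in 143B melatonin. FGFR3 made up 7.09% and 2.77% in JJ012, 37.8% in 143B control and 51.0% in 143B melatonin. FGFR4 made up 9.67% and 14.5% in the 143B libraries and at most 0.156% in JJ012.

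These shares depend on the length by which counts are divided. The deposited exonic length joins the exons of all transcripts and comes to 17201 bases for FGFR1 and 18813 for FGFR2, but 4848 for FGFR3. With the longest principal transcript of GENCODE 29, an alternative chosen after seeing the data, FGFR1 counts are divided by 5900 bases and FGFR3 counts by 4306. The share of FGFR1 was then 97.0%, 98.8%, 69.0% and 52.3%, in the order JJ012 control, JJ012 melatonin, 143B control and 143B melatonin. That of FGFR3 was 2.87%, 1.09%, 19.8% and 31.1%. FGFR3 over FGFR1 in 143B melatonin was 1.54 with the deposited length and 0.594 with the transcript length, so which of these receptors was the more abundant turns on the length. The same holds for FGFRL1 over FGFR1 in JJ012 control, at 2.36 and 0.967, while in 143B melatonin that ratio was 0.926 and 0.379. The summed level of the 4 receptors became 35.77, 28.99, 66.81 and 66.29 FPKM, so that with melatonin in 143B it was no longer the higher. A lower FGFR1 share and a higher FGFR3 share in 143B than in JJ012, and in 143B with melatonin than without, were found with both lengths.

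**Figure D2:**
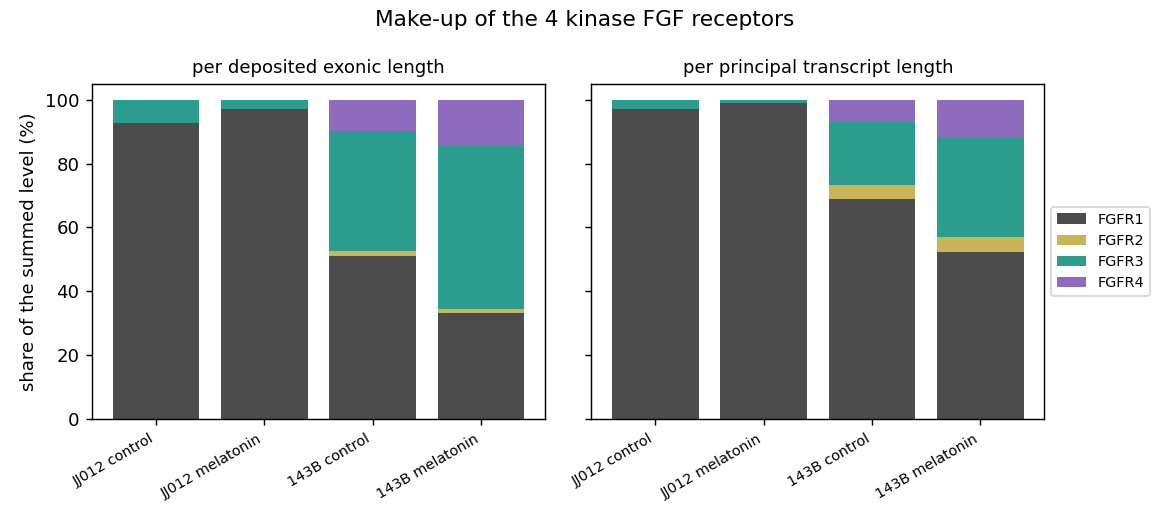
Share of each kinase receptor in their summed level (%), by library, with counts divided by the deposited exonic length on the left and by the principal transcript length on the right. FGFR1 fills over 92% of both JJ012 bars in each panel, while FGFR3 and FGFR4 take a larger share in 143B melatonin than in 143B control.

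The ligands were low. FGF5, on chromosome 4 (80266639 to 80336680), was the most abundant in JJ012, with 2.45 FPKM in control and 4.83 in melatonin, and had 0.34 and 0.32 FPKM in 143B. Its counts were 280, 465, 32 and 33 in the order JJ012 control, JJ012 melatonin, 143B control and 143B melatonin. The JJ012 libraries were the high ones, and the 143B pair did not differ beyond counting error. FGF2, also on chromosome 4 (122826708 to 122898236), had 0.81 FPKM in JJ012 control, 1.45 in JJ012 melatonin, 1.46 in 143B control and 0.92 in 143B melatonin. Its level was the higher with melatonin in JJ012 and the lower with melatonin in 143B. NUDT6 overlaps FGF2 on the other strand, with 179, 163, 42 and 62 counts against 106, 159, 157 and 107 for FGF2. The 2 genes overlap at 122888697 to 122898236. The strand setting of the counting is not given in the sources used here, so whether their reads were kept apart there is not known. In JJ012 control the counting intervals of FGF2 and FGFR3 overlapped (0.667 to 0.985 against 0.729 to 1.13 FPKM).

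FGF18, on chromosome 5 (171419647 to 171457626), had 11 and 14 counts in JJ012 and 3 and 9 in 143B, and at most 0.43 FPKM. FGF1 had 4 and 0 counts in JJ012 and 3 and 2 in 143B. FGFBP1 had 1 count in JJ012 control and 0 in the other 3 libraries. For these 3 genes no difference between libraries was detectable at this depth.

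On chromosome 4 lie 5 of the 10 genes, and on chromosome 5 lie 3. The deposited annotation places all 4 kinase receptors and all 4 ligands in the PI3K-Akt, MAPK, Ras and Rap1 signalling pathways and in the regulation of the actin cytoskeleton, which makes 8 of the 10, without FGFRL1 and FGFBP1.

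The first comparison asked which of these genes differed with melatonin in JJ012. A gene was compared where it reached 1 FPKM in at least one library of the pair. It was called risen or fallen at a difference of 0.58 in log2(FPKM + 1), the fold threshold of the study's methods, which here stands without its error criterion. FGFR1, FGFRL1, FGF2 and FGF5 passed the filter, 4 of the 10. FGF5 rose by 0.76 on that scale, and its CPM was 1.98-fold higher with melatonin (95% interval 1.70 to 2.30). None of the 4 fell. Among 15794 genes compared in JJ012, 38.2% were called, 19.6% as risen and 18.6% as fallen, so 1 call in 4 is no more than the background.

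The other 3 lay below the threshold. FGF2 was 0.44 higher on the log2(FPKM + 1) scale and 1.79-fold higher in CPM (1.39 to 2.31). FGFR1 was 0.25 lower on that scale, with CPM 1.21-fold lower (1.15 to 1.27). FGFRL1 was 0.23 lower, with CPM 1.18-fold lower (1.11 to 1.26). All 4 intervals of the CPM ratio excluded 1, as did those of 72.2% of the genes compared.

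FGFR3 did not pass the filter in JJ012, and its CPM was 3.25-fold lower with melatonin (2.01 to 5.45), from 85 and 22 counts. The values of FGFR1 and FGFRL1 depend on the scaling. With TPM, where each library's levels sum to the same total, the median of all genes in JJ012 moved by 0.20, FGFR1 lay at a difference of -0.00 and FGFRL1 at 0.04. With the trend over exonic length removed FGFR1 lay at -0.60, past the threshold. FGF2 passed it at 0.77 with a pseudocount of 0.1, 0.90 with TPM and 0.74 with CPM. The share of called genes that had risen in JJ012 was 51.4% as deposited and 62.3% with TPM.

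In 143B, FGFR3 and FGFR4 rose with melatonin. FGFR3 rose by 0.60 on the log2(FPKM + 1) scale, and its CPM was 1.56-fold higher (1.44 to 1.70). FGFR4 rose by 0.63, with CPM 1.73-fold higher (1.47 to 2.05). FGFR1, FGFR3, FGFR4, FGFRL1 and FGF2 passed the filter, 5 of the 10, and none fell. Among 14135 genes compared in 143B, 12.7% were called, 6.09% as risen and 6.65% as fallen, a smaller share than 2 of 5, which rests on few genes. Among protein-coding genes of GENCODE 29 alone, a background added after seeing the data, 6.09% were called in 143B and 33.9% in JJ012.

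Both calls in 143B lie close to the threshold. FGFR3 was at 0.57 when differences were centred on the median gene, 0.58 with TPM, which is just under the threshold before rounding, and 0.55 with the trend over exonic length removed. FGFR4 was at 0.57 with that trend removed, but above the threshold at 0.61 when centred and 0.70 with TPM. With CPM FGFR3 was at 0.63 and FGFR4 at 0.75. With a pseudocount of 0.1 FGFR3 was at 0.64 and FGFR4 at 0.77.

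The other 3 genes that passed the filter in 143B were below the threshold as deposited. FGFRL1 was 0.48 higher with melatonin, and its CPM was 1.45-fold higher (1.30 to 1.62). FGFR1 was 0.39 lower, with CPM 1.33-fold lower (1.27 to 1.39). FGF2 was 0.36 lower, from 157 and 107 counts, and passed the threshold at -0.61 with a pseudocount of 0.1, -0.61 with TPM and -0.59 with CPM. All 5 intervals of the CPM ratio excluded 1, as did those of 52.0% of the genes compared. FGFR2 had a CPM ratio of 1.06 (0.838 to 1.34), an interval that includes 1.

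**Figure D3:**
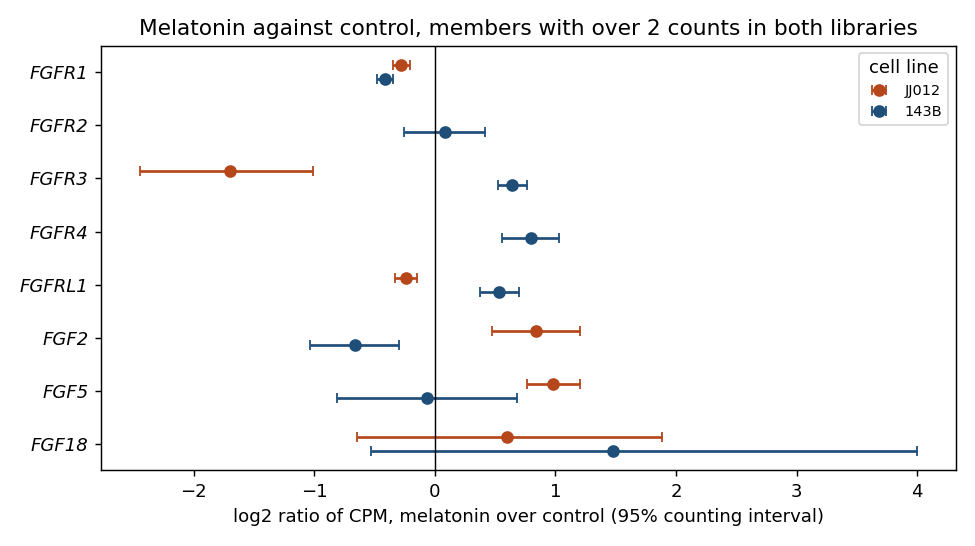
Log2 ratio of CPM, melatonin over control, for genes with more than 2 counts in both libraries of a line, where points are ratios of single libraries and bars their 95% counting intervals. FGFR3, FGFRL1 and FGF2 lie on opposite sides of 0 in the 2 lines, FGFR1 lies below 0 in both, and FGF18 has wide bars that cross 0.

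The lines themselves were compared as controls and, separately, with melatonin. In the controls, FGFR3 was 12.9-fold lower in JJ012 than in 143B by CPM (10.3 to 16.2) and FGFR4 was 138.5-fold lower (37.9 to 1150). FGFR2, with no count in JJ012, was at least 56.4-fold higher in 143B when its 140 counts are set against 3 counts per library, and the lower 95% limit of the ratio was 45.3-fold. FGFRL1 was 3.71-fold higher in JJ012 (3.37 to 4.08) and FGF5 7.23-fold higher (5.01 to 10.8). On the log2(FPKM + 1) scale the differences, JJ012 minus 143B, were -2.74 for FGFR3, -1.97 for FGFR4, 1.76 for FGFRL1 and 1.36 for FGF5. These are the 4 calls among the 6 genes that passed the filter, and FGFR1 at -0.38 and FGF2 at -0.44 were not called. Both were called lower in JJ012 when centred on the median gene, at -0.67 and -0.73, and with TPM, at -0.78 and -0.99. Of 16929 genes compared, 68.7% were called, 41.3% as higher in JJ012 and 27.4% as lower, so 4 of 6 is close to the background.

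With melatonin in both lines the same 4 genes were called, in the same directions, of 6 that passed. FGFR3 was 65.1-fold lower in JJ012 by CPM (42.8 to 104.1) and FGF5 15.0-fold higher (10.5 to 22.0). FGFRL1 was 2.17-fold higher in JJ012 (1.99 to 2.36). FGFR4, with 1 count in JJ012, was 403.5-fold lower (72.0 to 15970), and FGFR2 was at least 50.2-fold higher in 143B by the same floor, with a lower 95% limit of 40.3-fold. Of 16239 genes compared, 62.0% were called, 38.8% as higher in JJ012 and 23.2% as lower. The median over all genes compared was 0.29 in the controls and 0.28 with melatonin. The share of called genes that were higher in JJ012 was 60.1% in the controls as deposited, 48.6% with differences centred on that median, 51.3% with TPM and 47.7% with the length trend removed. With melatonin the share was 62.6% as deposited, 48.7% when centred, 60.4% with TPM and 48.5% with the length trend removed.

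The rest of the pathway was described by 7 lists of 94 genes. None of the 14 other FGF ligands reached 1 FPKM in any library, and the highest level was 0.78 FPKM. That was FGF9, named after its values were seen, with 6 and 3 counts in JJ012, 22 in 143B control and 65 in 143B melatonin. Its CPM was 2.74-fold higher with melatonin in 143B (1.66 to 4.66). Of the FGF homologous factors, which stay inside the cell and act on sodium channels, FGF13 and FGF14 reached 1 FPKM, both in JJ012 alone. FGF13 had 2.10 FPKM in JJ012 control and 3.25 in JJ012 melatonin, a difference of 0.46. FGF14 rose by 0.67, from 0.57 to 1.49 FPKM.

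Of 9 co-receptors and carriers, 3 passed the filter in JJ012 and 1 fell. That was FGFBP2, a relative of FGFBP1 that was also named after its values were seen, which fell by 0.99, from 67 to 19 counts, and had no count in 143B. In 143B, 2 passed and none was called.

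Core proteins that carry heparan sulfate, to which FGF ligands bind, fell more often than they rose in JJ012, where 4 of the 8 that passed the filter fell and 1 rose, or 62.5% called against 38.2% of all genes compared. The median difference of the list was -0.58, against 0.01 for all genes compared. AGRN, a basement membrane proteoglycan, fell by 1.16, from 37.93 to 16.41 FPKM. SDC2 fell by 0.99, SDC3, another syndecan, by 0.67 and the glypican GPC1 by 0.66. SDC4 rose by 1.04, from 17.28 to 36.65 FPKM. With TPM 2 fell and 1 rose. In 143B, SDC2 rose by 0.59, from 14.72 to 22.74 FPKM, the only call among 10 that passed, and it was lost with centring, with TPM and with the length trend removed. Of the enzymes that build and edit heparan sulfate, 12 passed in each line and none was called, with medians of 0.18 in both. With TPM 5 of 15 rose in JJ012, with a median of 0.49.

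Adaptors and transducers of the receptors passed the filter for 14 of 15 genes in JJ012, and 4 rose and none fell, with a median of 0.42. The share called in either direction, 28.6%, was below the 38.2% of all genes compared. All of these calls were rises, and 19.6% of all genes compared rose. CBL, a ubiquitin ligase that marks receptors for degradation, rose by 1.43, from 5.16 to 15.57 FPKM. FRS2, the docking protein of the FGF receptors, rose from 4.48 to 9.12 FPKM, SOS1, which activates RAS, by 0.83, and STAT3 by 0.74. With TPM 9 rose. In 143B all 15 passed and GRB14, an adaptor that binds receptor kinases, rose by 0.73, from 3.45 to 6.40 FPKM. The median there was -0.06, against 0.03 for all genes compared.

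Feedback inhibitors and target genes passed the filter for 16 of 20 genes in JJ012, where 8 rose and none fell, with a median of 0.62 and 50% called against 38.2% of all genes compared. These genes also respond to other inputs of the MAPK pathway, so their levels are not a measure of FGF receptors alone. DUSP5, a phosphatase that inactivates ERK, rose by 2.32, from 15.62 to 82.15 FPKM. DUSP4, a related phosphatase, rose by 1.46 and MYC by 1.54. SPRY4 and SPRED2, inhibitors of RAS-MAPK signalling, rose by 1.28 and 1.15. In 143B, 19 passed and EGR1, an immediate early gene, was the only call, rising by 1.39 from 23.13 to 62.36 FPKM. The median was 0.18. Over all 7 lists 14 genes rose and 5 fell of 55 that passed in JJ012, and 3 rose and none fell of 58 in 143B. These are 34.5% and 5.17% of the genes that passed, below the 38.2% and 12.7% of all genes compared. They are close to the 33.9% and 6.09% called among protein-coding genes alone.

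**Figure D4:**
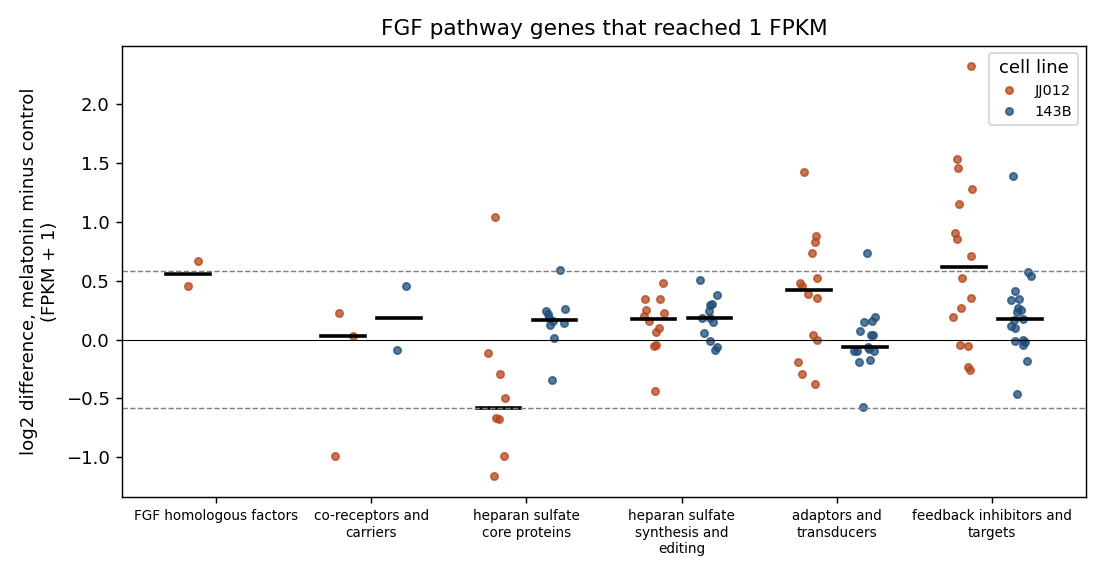
Differences in log2(FPKM + 1), melatonin minus control, of the pathway genes that reached 1 FPKM, by list and line, with 1 point per gene, the median as a bar and dashed lines at the threshold of 0.58. In JJ012 the medians were -0.58 for heparan sulfate core proteins and 0.62 for feedback inhibitors and targets, while in 143B the list medians lay between -0.06 and 0.18.

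The same feedback and target genes were mostly lower in JJ012 than in 143B. In the controls 16 of 19 that passed were lower in JJ012 and 2 were higher, with a median of -1.72. With melatonin 13 were lower and 2 higher, with a median of -1.07. In the controls 94.7% of the list genes that passed were called, against 68.7% of all genes compared. With melatonin these shares were 78.95% and 62.0%. Of all genes compared, 27.4% were called lower in JJ012 in the controls and 23.2% with melatonin. The medians over all genes compared, 0.29 and 0.28, had the opposite sign. DUSP6, an ERK phosphatase named after its values were seen, had 6 counts in each JJ012 library, 6800 in 143B control and 11007 in 143B melatonin. SPRY1, also named after its values were seen, had 1 and 0 counts in JJ012 and 264 and 311 in 143B. Both shared with FGFR2 and FGFR4 a near absence from JJ012. Among the listed genes that reached 1 FPKM in 143B, GPC2, GPC4, ETV1 and HS6ST3, named after their values were seen, had it too. Genes below 1 FPKM, such as FLRT3, FGF19 and FGF22, also had few counts in JJ012 and more in 143B.

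**Figure D5:**
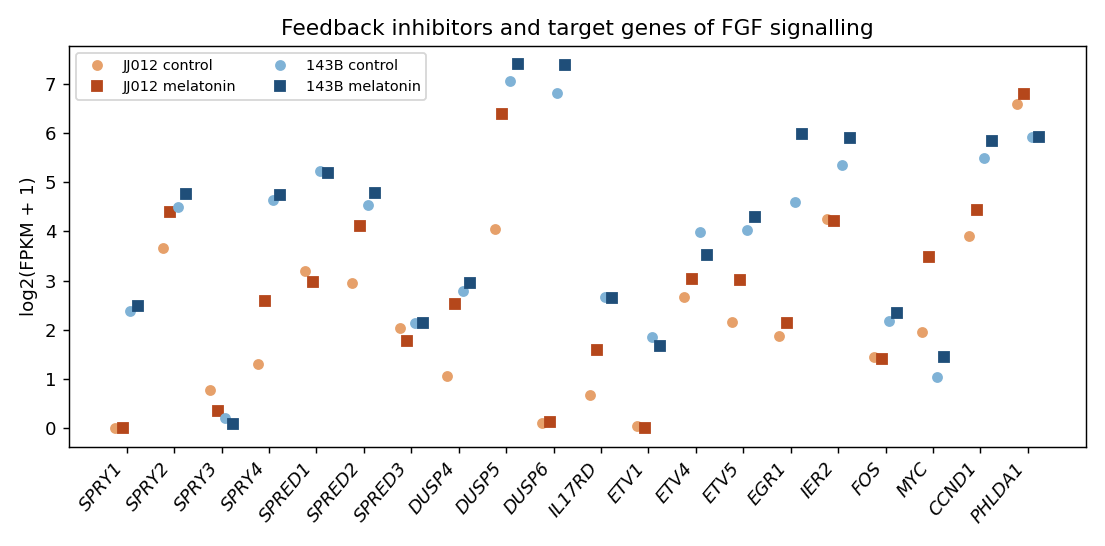
Level of 20 feedback inhibitors and target genes in the 4 libraries, as log2(FPKM + 1), with 1 point per library. DUSP6 and SPRY1 are near 0 in JJ012 and high in 143B, and DUSP5, DUSP4, MYC, SPRY4 and SPRED2 are higher in JJ012 melatonin than in JJ012 control.

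For the 4 genes whose level spanned at least 1 on the log2(FPKM + 1) scale, the most similar profiles were sought among 13087 annotated genes, by the root mean square difference of centred levels over the 4 libraries. With 4 points many genes come close, and the likeness is a description. The nearest to FGFR3 were NRGN (0.12), MDK (0.12) and SMIM3 (0.13). MDK, a heparin-binding growth factor, had 1.43 FPKM in JJ012 control, 0.85 in JJ012 melatonin, 15.92 in 143B control and 29.56 in 143B melatonin. FGFR4 was nearest to MATK (0.04), MT1M (0.07) and TTC4P1 (0.07). FGFRL1 was nearest to RNF25, C11orf24 and RNF135 (each 0.03), and FGF5 to MPP7 (0.04), MAP1A (0.04) and GREB1 (0.05). With TPM 2 of the 3 genes stayed the same for FGFR4 and for FGFRL1, 1 for FGFR3 and 0 for FGF5. The gene that stayed for FGFR3 was NRGN, and MDK was no longer among its 3 nearest.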

How the data were processed

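Poly(A) RNA of 4 libraries, 1 per group, was sequenced as paired reads. The submitters' processing notes name cutadapt 1.9.1, HISAT2 2.2.1, HTSeq 0.6.1 and hg38. The annotation release and strand setting are not given in the sources used here. Deposited by the authors were raw counts of each gene and FPKM, which equal counts divided by exonic length and library total (within 0.0051). Columns were matched to samples by cell line, and the suffix T was read as melatonin-treated, which the labels do not spell out.

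Libraries of a pair were compared in 4 comparisons as differences of log2(FPKM + 1), which understates changes of low genes, over genes with at least 1 FPKM in one of them, and counted from 0.58. CPM and their ratios, with exact (Clopper-Pearson) 95% intervals, were computed from the deposited counts. No test was run, since a comparison of single libraries has no residual degrees of freedom; an additive fit of line and treatment over the 4 libraries, which would treat the lines as replicates, was not run. Alternatives were a pseudocount of 0.1, filters of 0 and 5 FPKM, a threshold of 1, centring, TPM, CPM and removal of a running median over exonic length (501 genes). Scripts were tested on simulated data (200 changed genes) and used Python 3.11.15, numpy 2.4.6, pandas 2.3.3, scipy 1.17.1 and matplotlib 3.10.9.

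Named were the 10 genes, called list genes with at least 5 FPKM in any library (at most 5 per list and comparison), ligands and homologous factors reaching 1 FPKM, and the 3 most similar genes of members spanning 1 log2. Genes and lists were chosen with earlier results of these data known.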

Additional observations from a re-analysis of the deposited data

Results flagged for a closer look

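FGFR3, FGFRL1 and FGF2 moved in opposite directions with melatonin in the 2 lines, in log2 ratios of CPM, each from 1 library per condition. FGFR3 had a ratio of -1.70 in JJ012 and 0.64 in 143B. FGFRL1 had -0.24 in JJ012 and 0.53 in 143B. With TPM its differences were 0.04 in JJ012 and 0.47 in 143B, so the directions were then not opposite. FGF2 had 0.84 in JJ012 and -0.66 in 143B. Whether FGF2 reads were kept apart from those of NUDT6 where the genes overlap is not known. Whether the lines differed in any of these responses was not tested, since no group had a second library.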

How the results depend on the processing

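Without replicates, calls rest on single libraries, and FGF1, FGF18 and FGFBP1, with at most 14 counts, were too shallow for a comparison. No paired analysis was run. The values within a line come from no test, and the groups share fewer than 2 replicate numbers. A fit with the lines as pairs would treat the lines as replicates and was not run. The number of genes compared also changes with the setting. Of the 10 genes, 1 of the 4 compared in JJ012 was called as reported. The number was 2 of 4 with a pseudocount of 0.1 or the length trend removed, 3 of 6 with TPM and 3 of 5 with CPM. It was 0 of 2 with a filter of 5 FPKM and 0 of 4 with a threshold of 1. In 143B, 2 of 5 as reported became 3 of 5 with a pseudocount of 0.1, 3 of 8 with TPM and 3 of 7 with CPM. The number was 1 of 5 when centred, and 0 of 5 with a threshold of 1 or the length trend removed. Between the control lines, 4 of 6 became 2 of 3 with a filter of 5 FPKM, 6 of 6 when centred, 6 of 7 with CPM and 7 of 8 with TPM. Calls among pathway genes in JJ012, 19 of 55 as reported, became 33 of 62 with TPM and 8 of 55 with a threshold of 1. In 143B, 3 of 58 became 7 of 58 with a pseudocount of 0.1, 6 of 68 with TPM, 9 of 69 with CPM and 1 of 58 with a threshold of 1. Of the 3 genes most like FGFR3, 1 was shared with TPM, and of those most like FGF5, 0. The cause of these differences was not tested. Over 118 values of single members under alternatives, none of the called ones changed sign, and 1 uncalled value did, FGFRL1 in JJ012, at 0.04 with TPM.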
